A study of Homo sapiens with 48 samples.

Results

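The response of SATB1-expressing breast epithelial cells to 3 days of benzo[a]pyrene was measured by RNA-seq, as 1 of 5 numbered comparisons in the authors' deposited table. The comparison was chosen by its number, contrast 5, and covers the 15535 rows that carry a gene symbol, of 15691 in all. It is taken as 4 exposed against 4 untreated libraries of SATB1 cells, 8 of the 48 libraries of the series. The series also has GRO-seq, which reads RNA being made by engaged polymerases, on the same 6 groups of 4 libraries.

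All groups are MCF10A-1, a human breast epithelial line grown with fetal bovine serum, epidermal growth factor, hydrocortisone, insulin and cholera toxin. MCF10A is usually described as non-tumorigenic, whereas the labels class the cells as a breast malignancy. One population stably expresses SATB1, a nuclear protein that tethers chromatin loops, and the other carries the vector. Whether the SATB1 cells are a clone or a pool is not given in the sources used here. Untreated cells of each population were set against cells given 4 µM benzo[a]pyrene, for 3 hours in some groups and 3 days in others. The titles give these times and were followed, but a protocol text writes 72 hours in place of 3 hours, which is as long as 3 days. The controls are labelled as untreated, with no vehicle named. The study's interest was in genes of epithelial-to-mesenchymal transition (EMT).

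The column headers name no groups, so the identity of contrast 5 was checked against the other columns. SATB1 itself was 112-fold higher in contrast 1 of the authors' deposited table, which is read as untreated SATB1 cells over vector cells. Of the genes over 20-fold higher in contrast 1 (90 genes), the median implied standard error was 0.64 in both contrasts 2 and 3 but 0.20 and 0.21 in contrasts 4 and 5. For the 8 genes under 0.05-fold in contrast 1 the order was the reverse, 0.14 and 0.15 against 0.58 and 0.61. Genes that SATB1 cells express more were thus measured better in contrasts 4 and 5, which places both within SATB1 cells. Over the 15535 genes, which are not independent points, the rank correlation of contrast 5 was 0.45 with contrast 3 and 0.13 with contrast 2. Contrast 4 gave 0.41 with contrast 2 and 0.17 with contrast 3. These values pair contrast 2 with 4 and contrast 3 with 5, as vector and SATB1 cells at a shared time. They do not show which pair is the longer exposure. That contrasts 3 and 5 are 3 days and contrasts 2 and 4 are 3 hours is an assumption that no header states, and every time given for a contrast rests on it.

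Each gene has a deposited fold and p-value but no value per library, so depth and levels are unknown. Log2 fold changes carry an implied standard error, which is the log2 size over the Student quantile that matches the p-value. A gene was called where its Benjamini-Hochberg adjusted p over all 15535 rows was under 0.05, and "rose" and "fell" are used for called genes alone. The labels do not say whether the 4 libraries of a group are separate cultures. These p-values therefore measure the spread between libraries, which may be technical. Which libraries enter that spread is not given in the sources used here, and it may be pooled beyond the 8 of this comparison. In bulk RNA, fewer cells of a type and less RNA per cell cannot be told apart.

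Benzo[a]pyrene is a polycyclic aromatic hydrocarbon of smoke and soot. It binds the aryl hydrocarbon receptor (AHR), which leaves its HSP90 chaperone complex, pairs with ARNT in the nucleus and binds DNA at sites with the core GCGTG. CYP1A1 and CYP1B1, the best-known targets, then oxidise the compound to diol epoxides that form bulky adducts on guanine. Adducts are removed by nucleotide excision repair, bypassed by translesion polymerases, and can activate p53. In breast epithelium the same receptor is studied for effects on growth factor signalling, adhesion and motility.

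The promoters of 3 AHR targets that rose are shown because the receptor's core motif can be read in them. They are RefSeq windows on GRCh38.p14 from 250 bases before to 50 bases after an annotated start, written 5′ to 3′ on the gene's strand, with each GCGTG, or its reverse complement CACGC, in capitals. The CYP1A1 window is chr15:74725479-74725778 on the minus strand, that of TIPARP, 1 of 3 for the gene, is chr3:156674340-156674639 on the plus strand, and that of ALDH1A3 is chr15:100879581-100879880 on the plus strand.
CYP1A1: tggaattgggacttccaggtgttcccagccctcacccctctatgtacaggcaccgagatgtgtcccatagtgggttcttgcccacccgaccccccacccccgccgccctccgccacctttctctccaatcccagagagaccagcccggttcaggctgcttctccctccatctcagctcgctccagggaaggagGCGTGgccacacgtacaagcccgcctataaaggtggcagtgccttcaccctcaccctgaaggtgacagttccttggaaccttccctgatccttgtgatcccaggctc
TIPARP: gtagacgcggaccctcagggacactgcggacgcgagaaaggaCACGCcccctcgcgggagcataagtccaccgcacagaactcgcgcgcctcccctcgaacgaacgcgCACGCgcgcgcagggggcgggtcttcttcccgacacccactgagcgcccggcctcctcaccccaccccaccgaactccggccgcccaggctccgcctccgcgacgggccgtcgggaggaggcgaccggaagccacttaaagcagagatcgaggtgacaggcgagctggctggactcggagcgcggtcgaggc
ALDH1A3: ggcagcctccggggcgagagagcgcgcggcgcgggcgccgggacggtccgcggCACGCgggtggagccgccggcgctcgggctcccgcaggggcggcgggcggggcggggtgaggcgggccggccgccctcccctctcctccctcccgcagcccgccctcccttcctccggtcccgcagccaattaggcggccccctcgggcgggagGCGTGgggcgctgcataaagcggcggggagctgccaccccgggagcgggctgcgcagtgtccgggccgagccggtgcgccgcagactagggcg
The letters occur once in the CYP1A1 window and at 2 places in each of the TIPARP and ALDH1A3 windows. They are common: 36.5% of all 35116 promoter windows hold them on either strand. Of the AHR targets with a window, 10 of 15 hold the letters in at least 1 window, against 55.3% of the 12052 measured genes with a window. Among genes that rose the share was 58.6%, and among those that fell 55.2%. With at least 1.5-fold the shares were 50% of 60 genes that rose and 42.5% of 181 that fell. A match describes the letters in this window and nothing about binding.

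After 3 days of exposure 3332 genes were called, of which 1631 rose (10.5% of those tested) and 1701 fell (10.9%). Most changes were small: the median fold was 1.13 among genes that rose and 0.866 among genes that fell. The median log2 change of all genes was -0.0070. With a minimum of 1.5-fold, 80 genes rose (0.515%) and 248 fell (1.6%), and 144 genes reached 2-fold.

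**Figure D1:**
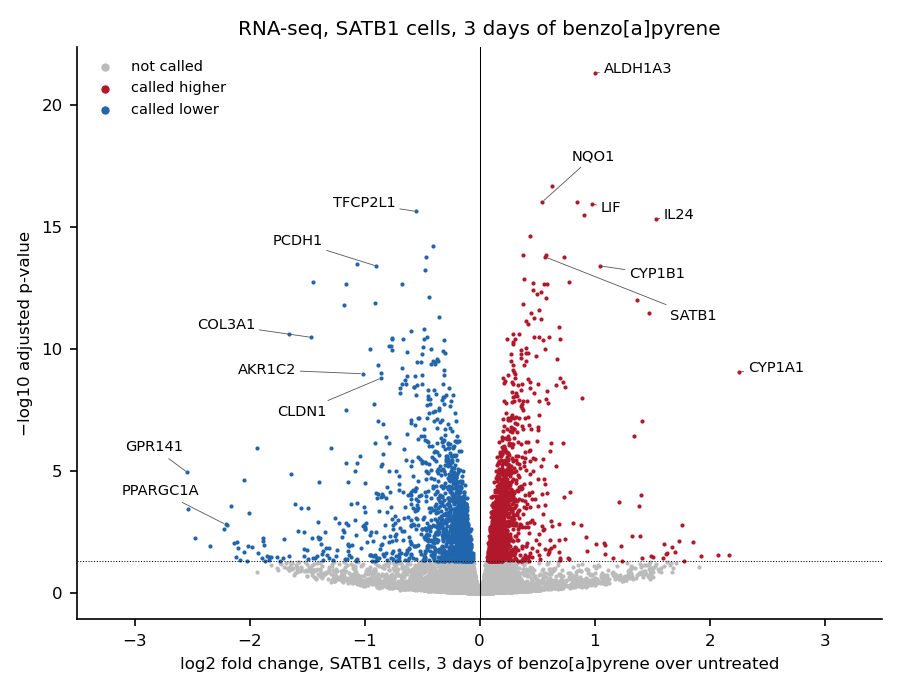
Log2 fold change of each gene with a usable symbol after 3 days of benzo[a]pyrene in SATB1 cells (x axis) against the −log10 of its adjusted p-value (y axis). The dotted line marks an adjusted p of 0.05. ALDH1A3 has the smallest adjusted p, CYP1A1 lies farthest to the right, and most called genes sit within 1 log2 unit of no change.

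SATB1 mRNA itself, whose gene lies at chr3:18345377-18445592, rose in the exposed SATB1 cells, by log2 0.57 ± 0.033 (Benjamini-Hochberg adjusted p = 1.65e-14). The authors' deposited table gives it as 1.49-fold after 3 days and 0.953-fold after 3 hours in these cells, and 0.836-fold after 3 days in vector cells. The table does not separate the introduced from the endogenous transcript, and the introduced gene's promoter is not given in the sources used here.

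Most AHR target genes rose. Of 19 measured, 12 rose and 0 fell, against 10.5% and 10.9% of all genes, and the list's median log2 change was 0.55. The list's members were chosen with earlier results of these data known, so this count is a description. CYP1A1 (chr15:74719542-74725528), the enzyme that oxidises benzo[a]pyrene, had the highest fold change among called genes with a usable symbol, 4.79 in the authors' deposited table, or log2 2.26 ± 0.21. CYP1B1, which forms the diol epoxide, rose by log2 1.04 ± 0.062. ALDH1A3 (chr15:100879831-100916626), which makes retinoic acid, rose by log2 1.00 ± 0.029 and had the smallest adjusted p among genes with a usable symbol (4.68e-22, Benjamini-Hochberg). The 2 feedback genes of the receptor also rose, AHRR, its repressor, by log2 0.82 ± 0.18 and TIPARP, an ADP-ribosyltransferase that limits AHR, by log2 0.47 ± 0.035. SERPINB2, a plasminogen activator inhibitor, rose by log2 1.47 ± 0.11, and NQO1, a quinone reductase, by log2 0.55 ± 0.025. FOSL1, IL1A, IL1B, SLC7A5 and EREG made up the rest of the 12, and each is also a member of another list. The 7 members not called included CYP1A2 at log2 0.93 ± 0.63 and UGT1A6 at 0.73 ± 0.76, both loosely measured. UGT1A6 is a gene whose exons are shared across its family. Another of the 7 had the lowest fold of the list, 0.589 in the authors' deposited table.

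Of 6 genes of the receptor's own machinery, 0 rose and 1 fell, ARNT2, a relative of ARNT, at log2 -0.33 ± 0.11. AHR was at log2 -0.12 ± 0.14 and ARNT at -0.083 ± 0.034, neither of them called. Of all genes 21.4% were called in either direction, so 1 of 6 is near the background.

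Values at 3 hours in these cells are listed beside those at 3 days. The authors' deposited table lists CYP1A1 at 45.6-fold at 3 hours and 4.79-fold at 3 days. In that table CYP1B1 was at 3.64 then 2.06-fold and AHRR at 2.89 then 1.76-fold. ALDH1A3 was listed in the authors' deposited table at 1.7 then 2.01-fold, and NQO1 at 1.1 then 1.46-fold. At 3 hours 13 of the 19 targets were called higher and 0 lower, where 3.87% and 4.9% of all genes were. These 2 comparisons use the same untreated libraries, so they are set side by side and their difference was not tested.

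**Figure D2:**
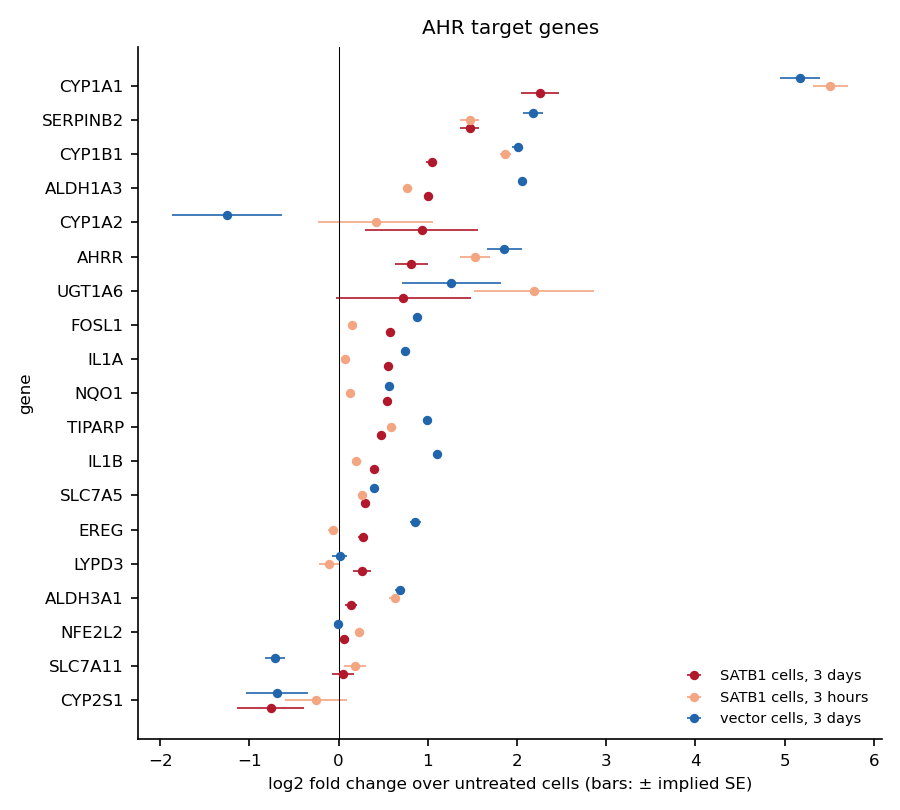
Log2 fold change over untreated cells (x axis) for the 19 AHR target genes (y axis, ordered by the 3 day value in SATB1 cells), with bars of ± 1 implied standard error. At 3 days in SATB1 cells CYP1A1 (2.26), CYP1B1 (1.04) and AHRR (0.82) lie left of their values at 3 hours and in vector cells at 3 days.

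Genes that process the activated compound were mixed. Of 22 phase 1, phase 2 and efflux genes, 3 rose and 6 fell, against 10.5% and 10.9% of all genes. Among the 6 were 3 aldo-keto reductases, a family that oxidises the diol to a quinone: AKR1C2 at log2 -1.02 ± 0.095, AKR1C3 at -0.34 ± 0.069 and AKR1B10 at -1.22 ± 0.28. The AKR1C genes are close copies of each other, so how reads were split between them is uncertain. The carbonyl reductases CBR1 and CBR3 and the efflux pump ABCC3 were the 3 that rose.

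NRF2 targets, the antioxidant genes that electrophiles induce, rose more often than they fell, 9 against 2 of 21. Among all genes 10.5% rose and 10.9% fell. OSGIN1, an oxidative stress growth inhibitor, rose by log2 0.73 ± 0.13. TXNRD1, a thioredoxin reductase, rose by log2 0.46 ± 0.029, and the ferritin chains FTL and FTH1 by 0.36 ± 0.032 and 0.29 ± 0.038. HMOX1, the heme oxygenase often used as a marker of this pathway, was at log2 0.30 ± 0.18 and was not called.

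Of 36 p53 targets, 3 rose (8.33%, near the 10.5% of all genes) and 11 fell (30.6% against 10.9%), with a median log2 change of -0.012. The risers were CDKN1A, the p21 cell cycle inhibitor (log2 0.29 ± 0.031), TP53I3 (0.21 ± 0.049) and TIGAR (0.15 ± 0.043). MDM2, the p53 ligase and a sensitive p53 target, was at log2 -0.0070 ± 0.039. BBC3, the apoptosis gene PUMA, fell, at log2 -0.30 ± 0.072 and GDF15, a stress cytokine, at -0.35 ± 0.068. TP73, a relative of p53, fell, at log2 -1.50 ± 0.30. Nucleotide excision repair had 1 gene higher (ERCC6, log2 0.19 ± 0.040) and 1 lower (XPC, -0.10 ± 0.036) of 17, a share of 5.88% each. Of 9 translesion synthesis genes, 0 were called with Benjamini-Hochberg adjustment, and 1 had an unadjusted p under 0.05.

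Of 34 S phase genes, 10 rose and 1 fell, with RRM2, a ribonucleotide reductase subunit, at log2 0.31 ± 0.030, the licensing factor CDC6 at 0.26 ± 0.033 and the cyclin CCNE2 at 0.34 ± 0.064. Of 25 mitosis and spindle genes, 3 rose and 1 fell, all by less than 1.5-fold; 12% higher is near the background. MKI67, a proliferation marker, was at log2 0.071 ± 0.034. The difference between these lists was not tested. Homologous recombination and Fanconi genes had 4 of 21 higher and 0 lower, led by BARD1, the partner of BRCA1 (log2 0.17 ± 0.050). Of 7 CDK inhibitor genes 2 rose and 1 fell, CDKN2B (p15), at log2 -1.02 ± 0.24. Histone genes had 2 of 13 higher and 2 lower, and chromatin architecture genes, SATB1 among them, 3 of 16 higher and 0 lower. With so few genes called in them, these last lists are not set apart from the 10.5% and 10.9% of all genes.

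Many immediate early and growth factor genes rose. Of 21 immediate early genes, 11 rose and 2 fell, against 10.5% and 10.9% of all genes, and the list's median log2 change was 0.22. EGR1 rose by log2 0.69 ± 0.053, IER3, an anti-apoptotic early gene, by 0.63 ± 0.027, and the AP-1 subunits FOSL1 and JUN by 0.58 ± 0.039 and 0.52 ± 0.041. MYC fell, at log2 -0.26 ± 0.031. Of 12 EGF family genes 6 rose and 1 fell: the ligands HBEGF (log2 0.70 ± 0.057), TGFA (0.31 ± 0.032), NRG1 (0.32 ± 0.061), EREG and AREG rose with the receptor EGFR (0.15 ± 0.032), and the feedback inhibitor ERRFI1 fell (-0.23 ± 0.049). The culture medium held added epidermal growth factor in every group. ERK feedback genes were divided, 5 higher and 3 lower of 14, with SPRY4 at log2 0.36 ± 0.037 and SPRY1 at -0.64 ± 0.091.

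Secreted inflammatory factors rose as well, 11 of 28 against 2 that fell, with a median log2 change of 0.22. The background shares were 10.5% higher and 10.9% lower. IL24, an IL-10 family cytokine, rose by log2 1.53 ± 0.076 and LIF, an IL-6 family cytokine, by 0.98 ± 0.046. The authors' deposited table gives these as 2.89-fold and 1.97-fold. The neutrophil factor CSF3 rose by log2 0.38 ± 0.026, IL1A by 0.55 ± 0.045, the chemokine CXCL1 by 0.38 ± 0.046 and TNF by 0.65 ± 0.19. IL18 and TNFSF10, the death ligand TRAIL, were the 2 that fell. Feedback genes of NF-kB rose in 5 of 11 cases with 0 lower, ICAM1 furthest at log2 0.33 ± 0.041. Interferon-stimulated genes had 3 of 25 higher and 0 lower, close to the background share.

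Chaperones of the endoplasmic reticulum gave the highest share of genes that rose among the 45 lists, where 10.5% of all genes rose. Of 17, 13 rose and 0 fell, with a median log2 change of 0.19. At 3 hours 0 of the 17 were called with Benjamini-Hochberg adjustment and 2 had an unadjusted p under 0.05. Few genes were called at 3 hours, 3.87% of all higher and 4.9% lower, so 0 of 17 is near that background. The rises at 3 days were small and none reached 1.5-fold. HSPA5, the luminal HSP70 known as BiP (chr9:125234853-125241343), rose by log2 0.38 ± 0.024, HSP90B1 by 0.24 ± 0.019, the lectin chaperone CALR by 0.22 ± 0.022 and the disulfide isomerase PDIA4 by 0.19 ± 0.024. XBP1, a transcription factor of the same stress response, rose by log2 0.19 ± 0.032. The promoters of HSPA5 and HSP90B1 are shown for the ER stress response element, a motif that was looked for after the values were seen. It is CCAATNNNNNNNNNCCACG on either strand, and a match is in capitals. The windows are chr9:125241294-125241593 on the minus strand and chr12:103930160-103930459 on the plus strand, again from RefSeq on GRCh38.p14.
HSPA5: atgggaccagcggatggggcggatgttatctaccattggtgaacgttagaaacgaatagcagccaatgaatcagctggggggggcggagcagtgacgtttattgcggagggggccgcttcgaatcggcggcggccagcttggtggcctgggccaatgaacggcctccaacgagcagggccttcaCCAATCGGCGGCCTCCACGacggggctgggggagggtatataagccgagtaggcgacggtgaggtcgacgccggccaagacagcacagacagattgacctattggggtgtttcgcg
HSP90B1: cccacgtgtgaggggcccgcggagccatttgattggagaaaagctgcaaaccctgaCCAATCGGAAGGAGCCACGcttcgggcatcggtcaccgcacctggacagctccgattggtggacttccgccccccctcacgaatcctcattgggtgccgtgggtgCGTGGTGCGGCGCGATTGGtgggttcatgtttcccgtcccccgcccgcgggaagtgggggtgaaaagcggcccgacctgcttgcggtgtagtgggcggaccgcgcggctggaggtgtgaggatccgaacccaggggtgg
The HSPA5 window holds 1 match and the HSP90B1 window 2. Of the 17 chaperone genes 7 hold a match in at least 1 window, whereas 16 of the 12052 measured genes with a window do (0.133%) and 0.0769% of all windows do. As background, this element was first described in chaperone promoters. Cytosolic heat shock genes were divided, 7 higher and 3 lower of 14, with CRYAB, a small heat shock protein, at log2 1.40 ± 0.36; HSPA1A and HSPA1B are near-identical copies and their reads may be split.

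Genes of amino acid stress downstream of ATF4 moved in both directions, 3 higher and 6 lower of 20, with a median log2 change of -0.043. Among all genes 10.5% rose and 10.9% fell. The transporters SLC7A5 and SLC3A2, which pair, rose by log2 0.29 ± 0.024 and 0.22 ± 0.021, and DDIT4, an mTOR inhibitor, fell, at -0.42 ± 0.035.

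**Figure D3:**
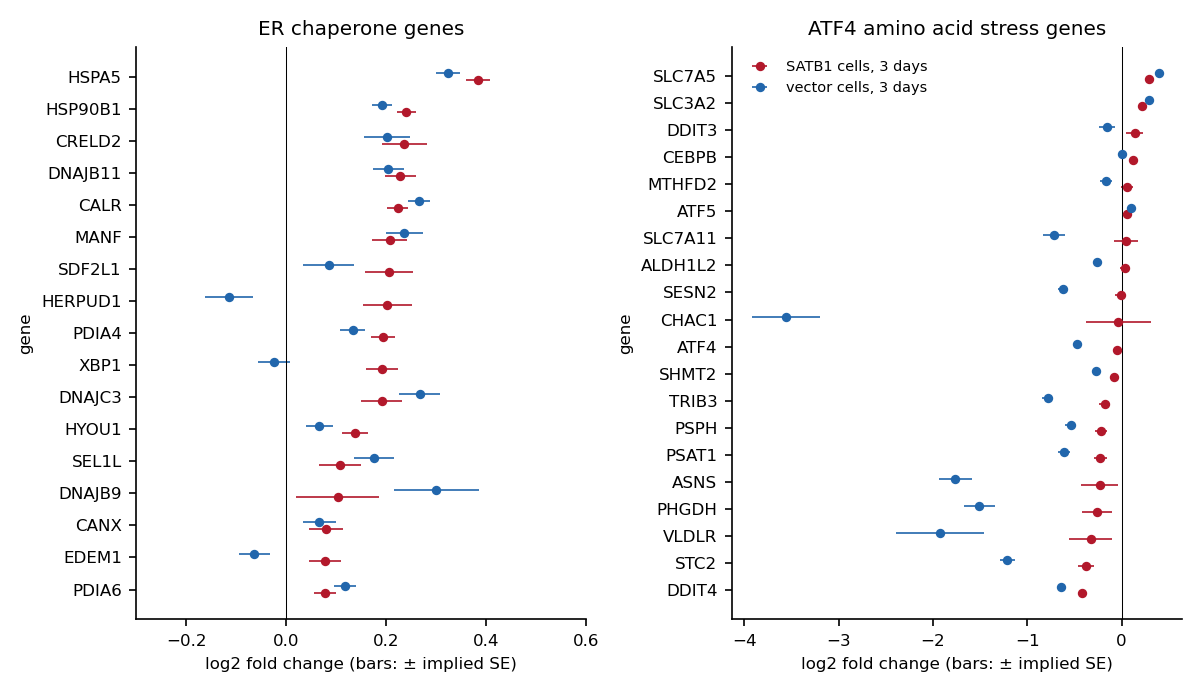
Log2 fold change (x axis, ± 1 implied standard error) after 3 days of benzo[a]pyrene for the 17 ER chaperone genes and the 20 ATF4 genes (y axes), in SATB1 cells (red) and vector cells (blue). All 17 chaperone points of SATB1 cells lie right of 0, and CHAC1, ASNS, PHGDH, VLDLR and STC2 lie far to the left in vector cells alone.

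Most genes of fatty acid synthesis fell. Of 12, 7 fell and 0 rose, among them the desaturase SCD (log2 -0.31 ± 0.030), ACSS2 (-0.30 ± 0.038), the synthase FASN (-0.25 ± 0.040) and their regulator SREBF1 (-0.24 ± 0.044). Cholesterol synthesis had 6 of 24 lower and 1 higher. Among 14 PPAR-linked genes, 3 rose and 4 fell. PPARGC1A, a coactivator of mitochondrial genes, fell, at log2 -2.21 ± 0.51, the mitochondrial kinase PDK4 at -0.79 ± 0.10 and the receptor PPARG at -0.36 ± 0.055, while ANGPTL4, a lipase inhibitor, rose by 0.56 ± 0.036. Respiratory chain subunits fell in 17 of 34 cases with 0 higher, none by 1.5-fold; CYC1 was at log2 -0.15 ± 0.026. Ribosomal proteins fell in 11 of 48 cases with 0 higher. The shares of all genes were 10.5% higher and 10.9% lower.

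EMT regulators moved in both directions. Of 18 EMT transcription factors, 3 rose and 6 fell, against 10.5% and 10.9% of all genes, with a median log2 change of -0.067. SNAI2 (Slug), a repressor of CDH1, rose by log2 0.19 ± 0.039, ETS1 by 0.53 ± 0.035 and RUNX2 by 0.22 ± 0.060, while FOXQ1 fell, at -1.01 ± 0.20 and SOX9 at -0.44 ± 0.10. SNAI1, ZEB1 and ZEB2 were at log2 0.18 ± 0.26, 0.18 ± 0.081 and 0.27 ± 0.11, not called. The 2 classic readouts were not called: CDH1, the epithelial cadherin, was at log2 -0.049 ± 0.031 and VIM, the mesenchymal filament, at -0.056 ± 0.024.

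Mesenchymal and matrix genes moved in both directions. Of 42, 14 rose and 9 fell, against 10.5% and 10.9% of all genes. Among the risers were THBS1 (thrombospondin, log2 0.51 ± 0.050), TGFBI (0.44 ± 0.023), PLAU (urokinase, 0.36 ± 0.039), MMP9 (0.51 ± 0.099), AXL (0.36 ± 0.031) and CD44 (0.20 ± 0.020). The 9 that fell were COL3A1 (log2 -1.46 ± 0.12), COL1A1 (-0.60 ± 0.046), COL1A2 (-0.57 ± 0.057), SPARC (-0.60 ± 0.069), COL5A1, COL5A2 and FBN1, with the protease MMP2 (-0.75 ± 0.17) and CALD1. The collagens COL1A1, COL1A2 and COL3A1 are also fibroblast markers, of which 4 of 9 fell and 0 rose. The fibroblast markers that are not collagens were not called except FAP: THY1 was at log2 0.025 ± 0.16, DCN at -0.26 ± 0.14 and PDGFRA at 0.89 ± 0.68. The part of such cells in these values was not tested. COL3A1 was 379-fold, COL1A2 681-fold and COL1A1 12.1-fold higher in SATB1 than in vector cells before exposure, per contrast 1 of the authors' deposited table.

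Basement membrane genes moved in both directions. Of 16, 3 rose and 8 fell, against 10.5% and 10.9% of all genes. LAMB3 and LAMA3, laminin chains of the hemidesmosome anchor, rose by log2 0.42 ± 0.032 and 0.29 ± 0.028. Those that fell included LAMB1 (-0.47 ± 0.027), LAMA5 (-0.25 ± 0.039) and COL7A1, the anchoring fibril collagen (-0.38 ± 0.073). Of 12 integrin subunits 3 rose and 4 fell, ITGA3, a laminin receptor, rising by log2 0.16 ± 0.028 and ITGA1, a collagen receptor, falling, at -0.48 ± 0.061.

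Junction genes fell more often than they rose, where 10.9% of all genes fell and 10.5% rose. Of 27 epithelial junction genes 10 fell and 2 rose, with the tight junction protein CLDN1 at log2 -0.86 ± 0.082, EPCAM at -0.39 ± 0.053 and TJP3 at -1.14 ± 0.33. The 2 that rose were TJP1 and CTNNB1. Of 14 desmosome genes 6 fell and 0 rose: PPL (periplakin) at log2 -0.88 ± 0.10, DSG3 at -0.46 ± 0.050 and DSP (desmoplakin) at -0.18 ± 0.023. Luminal markers had 6 of 11 lower and 0 higher, among them MUC1 (-0.50 ± 0.072) and ELF3 (-1.26 ± 0.27). Basal markers were even, 4 higher and 4 lower of 14, with KRT14 at log2 -0.36 ± 0.032 and KRT6B, a keratin of activated epithelium, at 0.70 ± 0.067; KRT6A, KRT6B and KRT6C are near-identical. Squamous differentiation genes had 5 of 27 lower and 0 higher with a median of -0.42, but most were loosely measured; TGM1, the envelope crosslinker, fell, at log2 -0.84 ± 0.12 and SPRR1A at -1.14 ± 0.38.

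The TGF-beta, WNT and Notch lists had shares of genes that rose from 7.14% to 17.9%, against 10.5% of all genes. Their shares of genes that fell ran from 17.9% to 35.7%, against 10.9% of all genes. TGF-beta and activin genes had 5 of 28 higher and 5 lower, INHBA, the activin A subunit, rising by log2 0.43 ± 0.058 and its inhibitor FST falling, at -0.86 ± 0.13. WNT genes had 2 of 23 higher, led by WNT9A (log2 0.74 ± 0.074), and 5 lower, including the inhibitors SFRP1 (-0.40 ± 0.022) and DKK1 (-0.48 ± 0.059). Notch genes had 1 of 14 higher and 5 lower, among them the targets HEY1 (-0.83 ± 0.19) and NRARP (-0.84 ± 0.15). Of 16 clock genes 6 fell and 2 rose, PER2 at log2 -0.54 ± 0.088; the sampling hour is not given in the sources used here. Of 25 hypoxia and glycolysis genes 5 rose and 1 fell, with NDRG1 at log2 0.42 ± 0.036 and VEGFA at 0.36 ± 0.048.

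**Figure D4:**
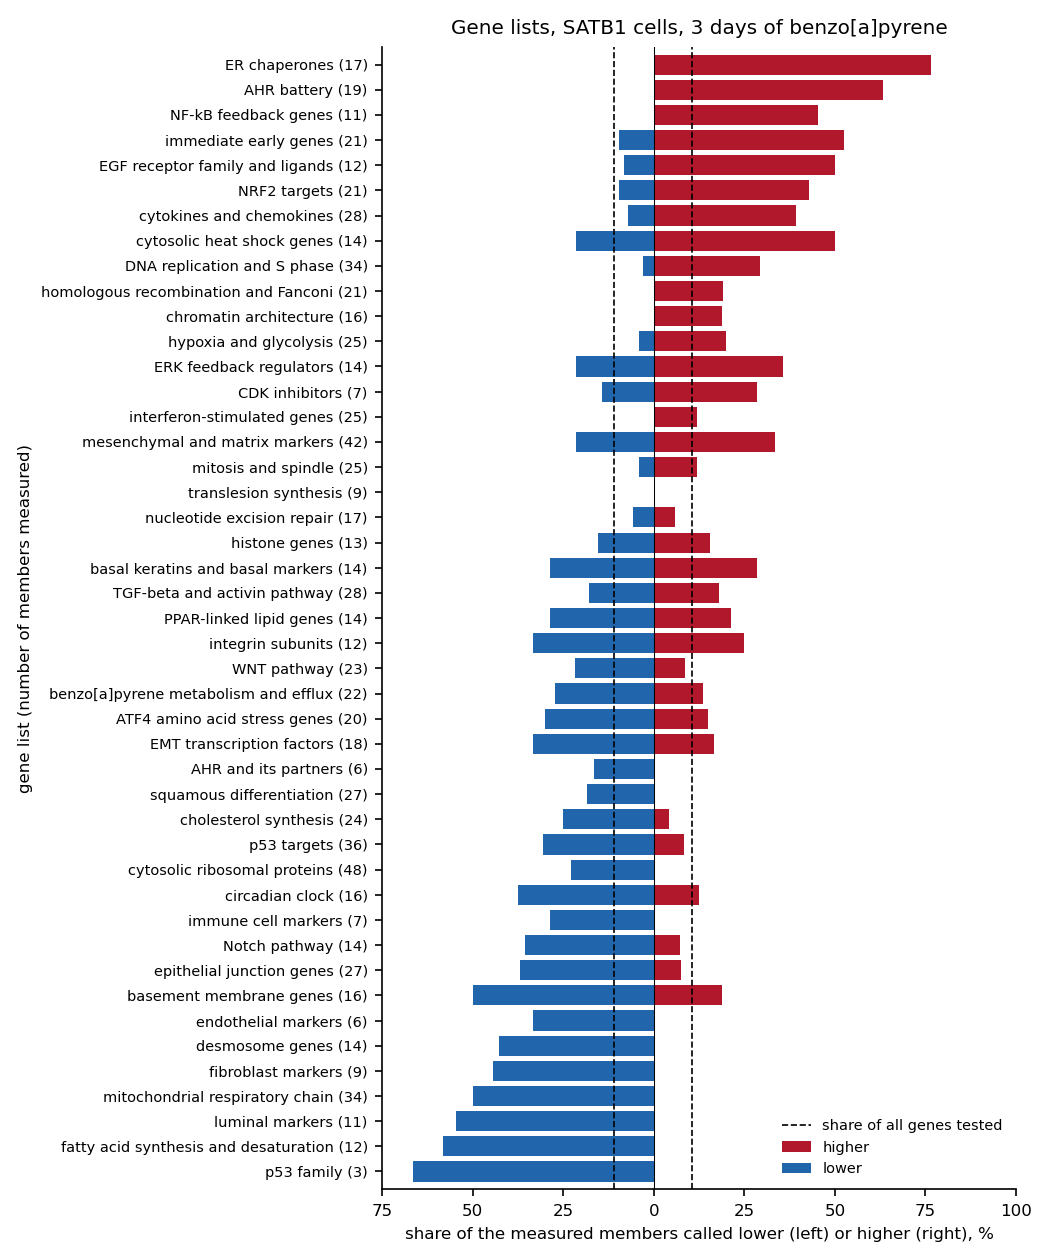
Share of the measured members of each of 45 gene lists called higher (red, right) or lower (blue, left) after 3 days of benzo[a]pyrene in SATB1 cells, in %; dashed lines mark the share of all genes (10.5% higher, 10.9% lower). ER chaperones (13 of 17) and AHR targets (12 of 19) stand highest.

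Beyond the lists, the most extreme called genes were loosely measured. The 10 highest were CYP1A1, RASGRP3, NETO1, TEX11, RBP7, IRAK3, EGR4, ZNF677, SLA2 and ZNF727, and the 10 lowest GPR141, GDF6, NME8, CXCR1, KLK8, PPARGC1A, SFTPD, ZNF750, CYP2E1 and BTNL9. Their implied standard errors ran from 0.21 to 0.73, against a median of 0.059 over all genes. The authors' deposited table gives RASGRP3, a Ras activator, as 4.5-fold, and GPR141, an orphan receptor, as 0.171-fold. Among the 7768 genes measured at the median error or better, adjusted again on their own, 2669 were called and 16 reached 1.5-fold. The 10 highest of these were ALDH1A3, LIF, ATP2B4, MAP1B, CYP4F11, AKAP12, HBEGF, EGR1, IER3 and ZBED2. ATP2B4, a plasma membrane calcium pump, rose by log2 0.91 ± 0.044 and MAP1B, a microtubule-associated protein, by 0.85 ± 0.039. Of the 10 lowest, PCDH1, a protocadherin, fell, at log2 -0.90 ± 0.054, FGFBP1, an FGF carrier, at -0.68 ± 0.043, and the epithelial transcription factor TFCP2L1 at -0.55 ± 0.026; CA2, ROS1, COL1A1, FAM213A, COL1A2, BCL6 and ASIC1 were the others.

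Called shares were also counted by gene span. Across 5 equal groups of annotated span, with medians from 4.95 to 166 kb, the share that rose ran from 9.68% to 11.9% and the share that fell from 9.95% to 11.9%.

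Vector cells exposed for the same 3 days give the comparison for what SATB1 cells did differently. In vector cells 18.3% of genes were called higher and 17.8% lower. The difference of the 2 responses was tested gene by gene with the implied standard errors and called at a Benjamini-Hochberg adjusted p under 0.05 for 697 genes (4.49%), with 309 higher and 388 lower in SATB1 cells. The 697 mixes references: the errors come from Student quantiles, and the difference was referred to the normal distribution, which favours calls. With Student's distribution for both, an alternative chosen after seeing the data, 413 genes were called. With normal quantiles for both the count was 295. It was 1080 with errors at 18 degrees of freedom, so the count depends on the statistic behind the deposited p-values. The list counts below use the mixed setting. The test rests on contrasts 3 and 5 sharing no library and on equal scaling of both.

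Most AHR targets had a lower log2 change in SATB1 cells than in vector cells. The difference was called for 12 of 19, against 4.49% of all genes, and 11 of the 12 were lower in SATB1 cells. The list's median log2 change was 0.55 against 0.86 in vector cells. CYP1A1 rose by log2 2.26 ± 0.21 in SATB1 cells and 5.17 ± 0.23 in vector cells. The corresponding values were 1.00 ± 0.029 and 2.06 ± 0.033 for ALDH1A3, and 0.40 ± 0.036 and 1.10 ± 0.037 for IL1B. NQO1 changed by log2 0.55 ± 0.025 and 0.57 ± 0.026, and that difference was not called. Before exposure, in contrast 1, 10 of the 19 targets were called higher and 4 lower in SATB1 than in vector cells, where 23.2% and 20.7% of all genes were. Contrast 1 of the authors' deposited table lists ALDH1A3 at 2.76-fold, CYP1B1 at 1.41-fold and TIPARP at 1.35-fold, and NQO1, whose response was not called different, at 1.44-fold. The part of that starting level in the difference was not tested.

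ATF4 genes gave the highest share of called differences among the 45 lists, 16 of 20, with 15 higher and 1 lower in SATB1 cells. Among all genes 4.49% were called different. In vector cells 15 of the 20 fell, where 17.8% of all genes were called lower. In SATB1 cells 6 of the 20 fell, where 10.9% of all genes did. The list's median log2 change was -0.57 in vector cells, against -0.043 in SATB1 cells. CHAC1, a glutathione-degrading enzyme, was at log2 -0.033 ± 0.34 in SATB1 cells and -3.55 ± 0.36 in vector cells. ATF4 itself was at -0.052 ± 0.028 and -0.47 ± 0.028, the secreted STC2 at -0.37 ± 0.083 and -1.21 ± 0.078, and the asparagine synthetase ASNS at -0.23 ± 0.20 and -1.76 ± 0.17. In contrast 1 of the authors' deposited table CHAC1 was at 0.207-fold, so untreated SATB1 cells started lower. The part of that starting level in the difference was not tested.

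Sterol genes differed in 9 of 24 cases, all lower in SATB1 cells, where 4.49% of all genes differed. HMGCS1, which begins the mevalonate pathway, was at log2 -0.16 ± 0.042 against 0.31 ± 0.043 in vector cells, and INSIG1, a sterol sensor, at -0.11 ± 0.040 against 0.29 ± 0.039. Of 42 mesenchymal and matrix genes 13 differed, 4 higher and 9 lower in SATB1 cells. COL1A1 fell in SATB1 cells and rose in vector cells, log2 -0.60 ± 0.046 against 0.54 ± 0.10. For COL3A1 the vector value equals the ratio shared by 206 rows of that contrast, so no comparison is drawn. ER chaperones differed in 3 of 17 cases, all higher in SATB1 cells, XBP1 at log2 0.19 ± 0.032 against -0.025 ± 0.032. LAMB3 was not called different, at 0.42 ± 0.032 and 0.45 ± 0.033.

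**Figure D5:**
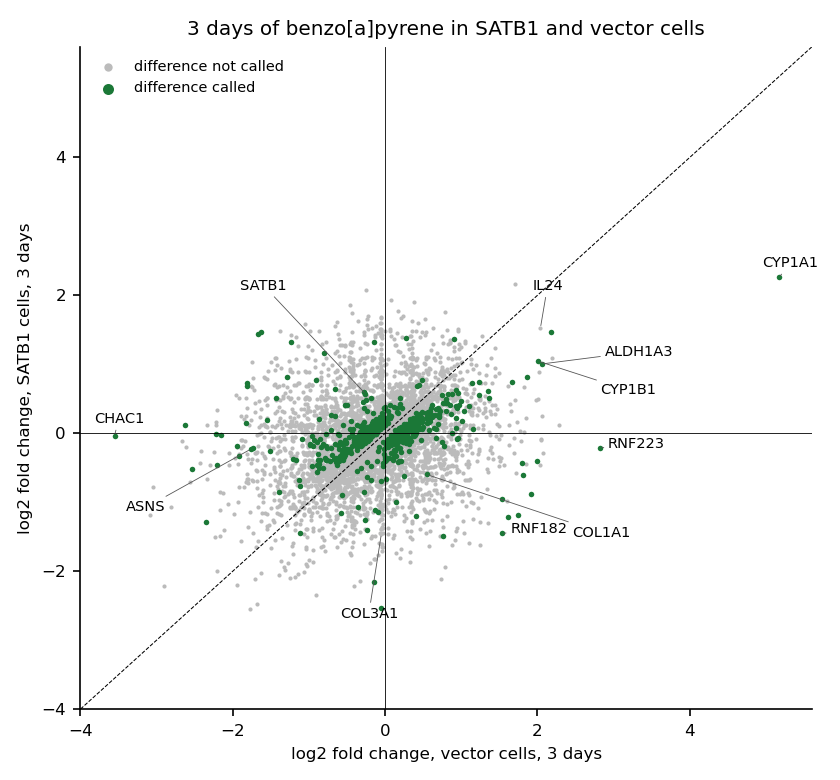
Log2 fold change after 3 days of benzo[a]pyrene in vector cells (x axis) against SATB1 cells (y axis), 1 point per gene with a usable symbol. Green points differ at an adjusted p under 0.05 and the dashed line marks equal change. CYP1A1 (2.26 against 5.17) and ALDH1A3 lie below the line and CHAC1 far to its upper left.

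GRO-seq contrast 5 is read as the same comparison for nascent RNA from its number alone. It called 35 genes (0.237% of 14745), 17 higher and 18 lower, with a median implied standard error of 0.32. CYP1B1 and AHRR rose in both assays, by log2 2.65 ± 0.47 and 2.42 ± 0.46 in GRO-seq. CYP1A1 was at log2 1.53 ± 0.81 there, not called. The highest called value in GRO-seq was that of the cytokine IL6, at log2 4.07 ± 0.68, with mRNA at 0.22 ± 0.14. The lowest was TAGLN, a smooth muscle actin-binding protein, at log2 -2.32 ± 0.41. The cell cycle regulator FOXM1 was at log2 -1.40 ± 0.30 and the Fanconi gene FANCA at -1.50 ± 0.30, while FANCA mRNA rose, by log2 0.14 ± 0.042. The median log2 change in GRO-seq was -0.70 for the 34 S phase genes and -0.79 for the 25 mitosis genes, against -0.0022 for all genes. With Benjamini-Hochberg adjustment 0 of either list were called in GRO-seq, and 18 and 15 had an unadjusted p under 0.05, each with a negative log2 change. Of all 14745 genes 1702 had an unadjusted p under 0.05 in GRO-seq, in either direction. Over 13772 genes present in both tables the rank correlation of the log2 changes was -0.063, across genes that are not independent. Of the 3216 genes called in RNA-seq among them, 44.9% had the same sign in GRO-seq. The 18 genes called in both were 0.56% of the RNA-seq calls and 51.4% of the GRO-seq calls, where 0.254% and 23.4% of the shared genes were called in GRO-seq and RNA-seq, and 7 of the 18 had the same sign. For the p53 targets MDM2 and XPC nascent RNA rose, by log2 0.96 ± 0.19 and 0.95 ± 0.16, while mRNA was at -0.0070 ± 0.039 and -0.10 ± 0.036. The median log2 change of the 36 p53 targets in GRO-seq was 0.57, with 2 called higher and 0 lower.

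Markers of other cells were looked up as well. Of 17 marker genes for epithelial, basal, fibroblast, endothelial and immune cells, 15 were listed. Of the epithelial and basal ones EPCAM, KRT8, KRT18, KRT5 and KRT14 fell, while CDH1 and TP63 were not called. In the separate, longer gene lists, endothelial markers had 2 of 6 lower and immune markers 2 of 7 lower, with 0 higher in either. Among all genes 10.9% fell and 10.5% rose. PECAM1 was at log2 -0.65 ± 0.24 and CD14, which epithelial cells can also express, at -0.40 ± 0.055. With no levels in the table, the presence or absence of such cells was not tested.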

How the data were processed

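MCF10A-1 cells with vector or stable SATB1, untreated or exposed to benzo[a]pyrene, were profiled by poly(A) RNA-seq and GRO-seq, 24 libraries each. Per the file headers, the deposited values are a linear fold (ratio) for each of 5 numbered contrasts and its p-value, which the authors left unadjusted. Per the submitters' processing notes, STAR and DESeq were used for RNA-seq, and BWA 0.7.16a, featureCounts and limma for GRO-seq, on GRCh38; the sources used here do not give filters, annotation or use of strand, so overlapping and antisense genes are uncertain. The tables hold 0 columns of values per library. The planned fit to libraries, should the files hold them, was therefore not made, and the depth is unknown.

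Benjamini-Hochberg adjustment ran over all rows with a symbol; 156 rows without one (0.994%) were left out. Implied standard errors used 31 degrees of freedom in RNA-seq and 25 in GRO-seq, at which a gene's 5 errors varied least. They assume that the p-values came from a Student statistic of the log2 change. This is uncertain for RNA-seq, since the tool those notes name differs from limma, whose column naming the p-values follow, and normal-based p-values would give other errors. The difference between contrasts 5 and 3 was divided by the combined standard error and referred to the normal distribution. Symbols that had become dates (23) or stood on more than 1 row (6) were tested but not named.

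The 45 gene lists hold 849 genes, of which 827 were measured. The members and lists were chosen with earlier results of these data known. Named genes were SATB1, CYP1A1, CYP1B1, AHRR, TIPARP, CDH1, VIM and SNAI2, the 10 highest and 10 lowest fold changes among called genes, up to 4 called members per list with the smallest adjusted p, and the 6 largest and 6 smallest called differences. Added after seeing the values were the 10 highest and lowest more precisely measured genes and the 4 differences with the smallest adjusted p in lists with 9 or more; other list members are named to complete a group, and some genes that the rule picks are not reported here. Sequences are RefSeq promoters on GRCh38.p14. Steps were tested on simulated data. Alternatives were other thresholds, a minimum fold, other adjustments, the more precisely measured genes, centring on the median, and other references for the difference. The work used scipy 1.17.1, numpy 2.4.6 and pandas 2.3.3 under Python 3.11.15, with figures from matplotlib 3.10.9.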

Additional observations from a re-analysis of the deposited data

Results flagged for a closer look

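The response to 3 days of benzo[a]pyrene differed between SATB1 and vector cells for 697 genes (4.49% of those tested) by the test of the difference itself. With Student's distribution for both the errors and the difference, 413 genes were called. Differences below are log2 change in SATB1 cells minus that in vector cells, with the implied standard error.

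Among AHR targets the differences were -2.91 ± 0.31 for CYP1A1, -0.96 ± 0.089 for CYP1B1, -1.04 ± 0.27 for AHRR, -0.52 ± 0.050 for TIPARP, -1.05 ± 0.044 for ALDH1A3 and -0.70 ± 0.052 for IL1B, each a smaller rise in SATB1 cells. SATB1 differed by 0.83 ± 0.19, having risen in SATB1 cells while its change in vector cells was not called.

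ATF4 pathway genes differed upward, CHAC1 by 3.52 ± 0.50, STC2 by 0.84 ± 0.11, SESN2 by 0.61 ± 0.077, TRIB3 by 0.60 ± 0.081 and ATF4 by 0.42 ± 0.040. Sterol genes differed downward, HMGCS1 by -0.47 ± 0.060, INSIG1 by -0.40 ± 0.056 and SQLE by -0.24 ± 0.035. Of the matrix and cytoskeleton genes, COL1A1 differed by -1.14 ± 0.11, LOXL2 by -0.47 ± 0.059, TGFBI by -0.32 ± 0.033 and TPM1 by 0.25 ± 0.042. With Student's distribution the called differences went from 12 to 11 in the AHR list, 16 to 13 in the ATF4 list, 9 to 8 in the sterol list and 13 to 10 in the matrix list. The 16 genes picked from these lists for the smallest adjusted p were still called, as that choice favours.

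The remaining extremes were loosely measured. RNF223 differed by -3.03 ± 0.70, RNF182 by -2.99 ± 0.88, C7orf61 by -2.93 ± 0.91, NCCRP1 by -2.83 ± 0.86 and RAB19 by -2.80 ± 0.79. In the other direction TBC1D3E differed by 3.11 ± 0.94, CTRL by 3.10 ± 0.90, SCGB1A1 by 2.74 ± 0.87, PTGES3L by 2.56 ± 0.75 and HIST1H4D by 2.55 ± 0.80. Of the 12 most extreme differences, CYP1A1 and CHAC1 included, 4 were also called with Student's distribution: CYP1A1, CHAC1, RNF223 and RAB19. In SATB1 cells SCGB1A1 is listed at the ratio that 128 rows of the contrast share, and TBC1D3E and HIST1H4D belong to families of near-identical copies.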

How the results depend on the processing

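No paired analysis was possible because the tables hold comparisons and no value per library; for the same reason the planned fits without a replicate and with a replicate block were not run. The 3332 genes called (1631 higher, 1701 lower) became 2071 (1051 and 1020) at an adjusted p under 0.01, 1769 (893 and 876) by the Benjamini-Yekutieli adjustment, 328 (80 and 248) with at least 1.5-fold and 144 (36 and 108) with at least 2-fold. An adjusted p under 0.1 and adjustment over all rows gave counts within 1.5 times. So did the more precisely measured genes, but there 2669 of 7768 were called, a smaller set than all genes tested. Centring on the median of all genes left the counts unchanged, but the shift was too small for another outcome. The balance between directions moved: 1479 higher and 1190 lower among the more precisely measured genes, and mostly lower genes past 1.5-fold. The cause was not tested.

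The 697 called differences between SATB1 and vector cells became 352 at an adjusted p under 0.01, 1090 under 0.1, 104 with at least 1.5-fold, 1080 with standard errors at 18 degrees of freedom, 295 with standard errors at normal quantiles, and 413 with Student's distribution for the difference, which was chosen after seeing the data. These counts follow from how errors are derived from p-values, so a single difference near the threshold is uncertain.

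Of 49 list counts of at least 3 genes, 40 stayed within 1.5 times at an adjusted p under 0.01, 35 among the more precisely measured genes and 0 with at least 1.5-fold, where 27 fell to 0. Of 212 named genes, 31 were no longer past the threshold by the Benjamini-Yekutieli adjustment and 0 were lost with adjustment over all rows. Centring moved every gene by the median of -0.0070 alone, too little to turn a called gene. The unknown depth limits the extremes, whose errors reach 0.73.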
